A study of Mus musculus with 8 samples.

Results

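Peaks of H3K9ac and of H3K27me3 in Lewis lung carcinoma isografts were compared to ask whether acetylation and Polycomb methylation oppose each other in promoters, gene bodies and 100-kb tiles. The comparison used 4 of the 8 libraries of the series, chosen by their antibody: H3K9ac in LLC-NR, H3K9ac in LLC-R, H3K27me3 in LLC-NR and H3K27me3 in LLC-R. LLC is a mouse lung carcinoma line. LLC-NR is drug sensitive. LLC-R is resistant to VEGF-Trap, a soluble decoy receptor for VEGF, and came from 5 rounds of selection in treated mice. Both lines were grown under the skin of female C57BL/6J mice, which were 6 to 8 weeks old when obtained, to tumors of about 500 mm3. Each line stands for 1 selection history, and how many tumors entered a library is not given in the sources used here. The tissue also holds host cells. In such bulk chromatin, fewer cells that carry a mark and less of the mark per cell cannot be told apart.

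H3K9ac is placed by acetyltransferases such as GCN5 and PCAF and is known from the promoters of active genes. H3K27me3 is placed by Ezh1 or Ezh2 within Polycomb repressive complex PRC2 and is known from silent developmental genes, many of them with CpG islands. H3K36me3 follows transcribing polymerase along gene bodies, and nucleosomes that carry it are a poor substrate for PRC2 in biochemical work. H3K4me3 marks active and poised promoters. The libraries of these last 2 marks were not part of the comparison and served to rank and describe regions.

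Each file lists peaks 147 bp wide, the length of DNA on a nucleosome, that do not overlap and carry no height. On chromosomes 1 to 19, the H3K9ac libraries held 8152931 peaks for LLC-NR and 7491487 for LLC-R, and the H3K27me3 libraries held 6889867 for LLC-NR and 8629352 for LLC-R. The peaks covered 42.3% to 53.0% of autosomal bases, so a number of peaks has a ceiling and differences between regions are compressed. The order of depth crossed between the lines, with H3K9ac the deeper library in LLC-NR and H3K27me3 in LLC-R. There was 1 library per line and mark. The 2 libraries on each side are therefore 2 different tumor lines, and every p-value below counts the difference between the lines as error, except where the line was a block in the fit. With 2 libraries against 2, an exact permutation test of a single value cannot go below p = 0.33, so single values were not tested.

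Sequences of single peaks are shown here from promoters that leaned to either mark. The 8 sequences below lie upstream of the transcription start site (TSS) of promoters that passed the test described further on, and are shown because they hold a nucleosome that both libraries of one mark called within 36 bp of each other and neither library of the other mark called within 147 bp. They are read 5′ to 3′ on the strand of the gene from NCBIM37 (mm9), overlap no annotated exon, and have CpG dinucleotides in capitals. The following 4 were H3K27me3 peaks.
Cacna2d3 (chr14:30535172-30535318, minus strand): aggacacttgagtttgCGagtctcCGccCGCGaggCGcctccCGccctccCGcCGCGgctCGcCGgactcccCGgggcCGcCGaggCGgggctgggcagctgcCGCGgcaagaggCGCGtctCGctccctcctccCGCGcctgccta
Fzd10 (chr5:129105941-129106087, plus strand): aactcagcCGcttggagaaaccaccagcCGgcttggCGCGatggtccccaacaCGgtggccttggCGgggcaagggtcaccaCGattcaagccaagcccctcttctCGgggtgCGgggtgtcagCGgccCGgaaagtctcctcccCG
Hs6st3 (chr14:119537137-119537283, plus strand): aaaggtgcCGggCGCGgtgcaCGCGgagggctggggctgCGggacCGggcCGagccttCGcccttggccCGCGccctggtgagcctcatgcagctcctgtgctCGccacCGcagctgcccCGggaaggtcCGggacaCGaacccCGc
Nrg3 (chr14:40286622-40286768, minus strand): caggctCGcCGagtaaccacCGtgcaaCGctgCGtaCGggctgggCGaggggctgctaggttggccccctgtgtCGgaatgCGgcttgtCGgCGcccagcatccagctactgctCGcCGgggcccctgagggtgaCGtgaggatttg
They held 12 to 22 CpG dinucleotides in 147 bp, with a G+C content of 66.7% to 77.6%. The next 4 were H3K9ac peaks.
Zfp36 (chr7:29164378-29164524, minus strand): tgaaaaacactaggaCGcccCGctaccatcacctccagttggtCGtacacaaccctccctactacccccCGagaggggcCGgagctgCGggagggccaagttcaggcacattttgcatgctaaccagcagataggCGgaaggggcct
Arrdc2 (chr8:73364009-73364155, minus strand): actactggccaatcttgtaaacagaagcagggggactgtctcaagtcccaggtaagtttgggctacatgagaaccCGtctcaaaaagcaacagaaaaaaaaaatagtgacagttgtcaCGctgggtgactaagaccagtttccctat
Ank3 (chr10:68996107-68996253, plus strand): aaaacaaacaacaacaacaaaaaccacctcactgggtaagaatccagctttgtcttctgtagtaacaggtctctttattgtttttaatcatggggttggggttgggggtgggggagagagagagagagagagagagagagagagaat
A530054K11Rik (chr13:67739358-67739504, minus strand): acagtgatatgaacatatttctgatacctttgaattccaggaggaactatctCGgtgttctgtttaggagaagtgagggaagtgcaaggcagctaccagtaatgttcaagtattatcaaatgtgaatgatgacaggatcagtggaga
These held 0 to 7 CpG dinucleotides, with a G+C content of 40.1% to 59.9%. The sequences were picked by the mark and not by their composition, but 4 against 4 is a display and not a sample, and no test was made on them. Over whole windows, the 146 promoters called higher in H3K9ac were not poor in CpG. Their medians were 42.0 CpG per kb and a G+C content of 52.6%, against 34.6 and 52.3% for all promoters.

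Across the autosomes, H3K9ac peaks lay near H3K27me3 peaks more often than bases did, although most H3K9ac peaks had none that near. Of the 8152931 H3K9ac peaks of LLC-NR, 38.0% had the midpoint of an H3K27me3 peak of the same line within 36 bp, while 21.0% of bases lay that near to one. In LLC-R the share was 46.8% against 26.3% of bases. Peaks of one mark in both lines met at a similar rate: 42.7% of the H3K9ac peaks of LLC-NR lay near one of LLC-R, against 22.8% of bases. These shares of bases are over the autosomes, and none was computed for promoters alone or for mappable sequence. Without an input library, positions of a mark and positions of nucleosomes in general cannot be told apart. Inside promoters the H3K9ac libraries of both lines met more often, at 49.0% of the LLC-NR peaks, than H3K9ac met H3K27me3 within LLC-NR, at 39.1%. This was not so for H3K27me3: its LLC-NR peaks in promoters met H3K27me3 of LLC-R at 47.6% and H3K9ac of LLC-NR at 47.0%, and its LLC-R peaks met H3K27me3 of LLC-NR at 39.9% and H3K9ac of LLC-R at 42.0%.

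**Figure D1:**
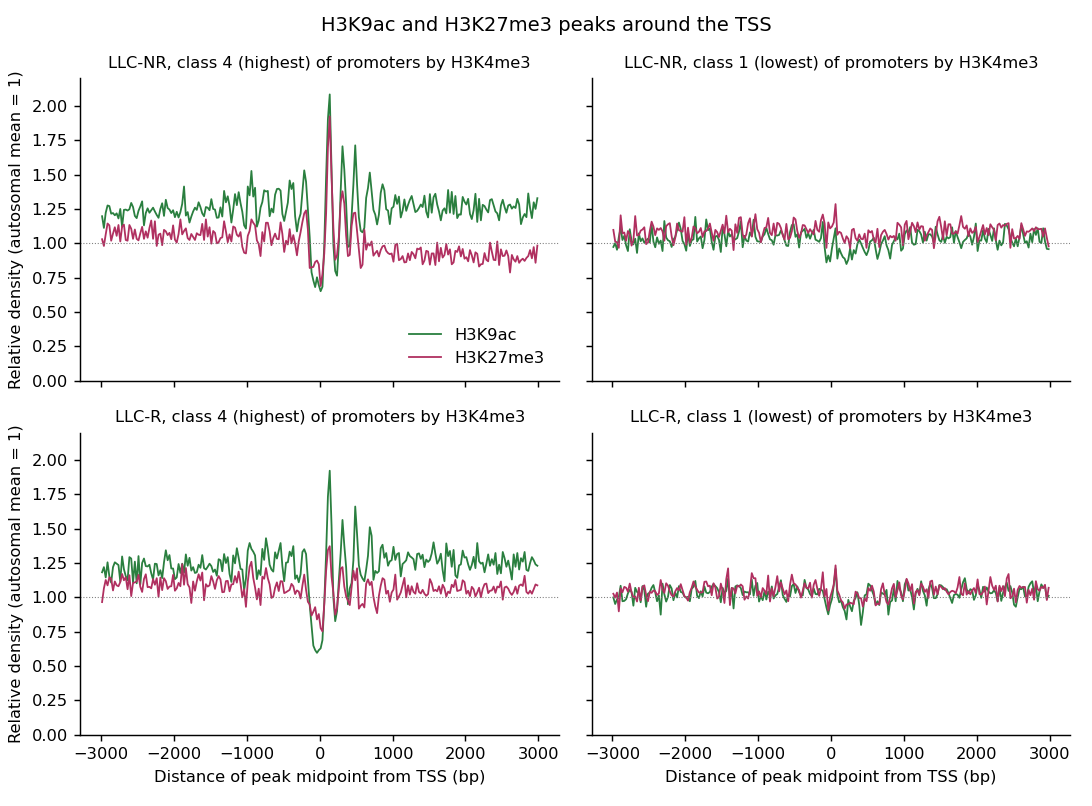
Density of peak midpoints in 25-bp bins within 3 kb of the TSS on either side, relative to the autosomal mean of each library (1, dotted line), for H3K9ac (green) and H3K27me3 (red) in both lines. In the highest of 4 equal classes of promoters by H3K4me3 (class 4), both marks show a trough at the TSS and a row of peaks downstream, with H3K9ac above H3K27me3 on the flanks. In the lowest (class 1) both marks lie nearer to 1, with H3K27me3 above H3K9ac just upstream of the TSS.

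Relative density here is the number of peaks per kb divided by the mean of the same library over the autosomes, so 1 is the average of the genome. Promoters were ranked by H3K4me3 into 4 classes of equal size. In the highest class, H3K9ac reached 2.08 for LLC-NR and 1.92 for LLC-R in the bin centred 137.5 bp downstream of the TSS, where the first nucleosome after an active start site is usually found. H3K27me3 had its highest bin at the same place, at 1.92 for LLC-NR and 1.37 for LLC-R. From -150 bp to the TSS, H3K9ac stood at 0.782 and 0.703 and H3K27me3 at 0.843 and 0.893, for LLC-NR and LLC-R. Both marks were thus below the genome mean at the start site and above it just downstream. From 1 to 3 kb downstream the marks separated, with H3K9ac at 1.26 in both lines and H3K27me3 at 0.909 for LLC-NR and 1.06 for LLC-R. In the lowest class of promoters by H3K4me3 the marks lay closer together from 1 to 3 kb downstream. H3K9ac was at 1.04 there in both lines and H3K27me3 at 1.09 for LLC-NR and 1.05 for LLC-R. From -150 bp to the TSS of this class, H3K9ac stood at 0.968 and 0.973 and H3K27me3 at 1.12 and 1.04, for LLC-NR and LLC-R.

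Whole promoters were taken as the window that starts 1 kb before the TSS and ends 0.5 kb after it. Across them the numbers of peaks of the marks correlated weakly. Of 21418 promoters, 20405 held a mean of at least 2 peaks over the 4 libraries, with a median of 6 peaks and at most 9 in a library. Their pooled relative densities were 1.14 for H3K9ac and 1.11 for H3K27me3 for LLC-NR, and 1.12 and 1.06 for LLC-R. The Spearman correlation of the marks across these 20405 promoters was 0.064 for LLC-NR and 0.14 for LLC-R. The same mark in both lines correlated at 0.42 for H3K9ac and 0.48 for H3K27me3. Promoters share mappability, depth and base composition and are not replicates. These values are descriptions and do not test opposition of the marks.

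The level of H3K4me3, which the comparison does not use, ordered the promoters by which mark was ahead. In LLC-NR, the log2 ratio of the relative densities of H3K9ac and H3K27me3 was -0.11, -0.075, 0.099 and 0.21 from the lowest to the highest class by H3K4me3. In LLC-R it was -0.046, 0.042, 0.12 and 0.18. The lowest class thus leaned to H3K27me3 and the highest to H3K9ac in both lines. H3K9ac made most of this step, from 1.01 to 1.24 in LLC-NR and from 1.01 to 1.19 in LLC-R. H3K27me3 was highest in the second class, at 1.18 and 1.08, and stood at 1.07 and 1.06 in the highest. In single promoters the order was loose. H3K9ac was ahead in 35.97% of the lowest and 57.7% of the highest class in LLC-NR, and in 39.7% and 61.2% in LLC-R. The classes also differed in median G+C content, from 45.9% in the lowest to 56.2% in the highest in LLC-NR. In LLC-R these medians were 45.7% and 56.4%. The part of G+C content in the order of promoters was not tested.

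**Figure D2:**
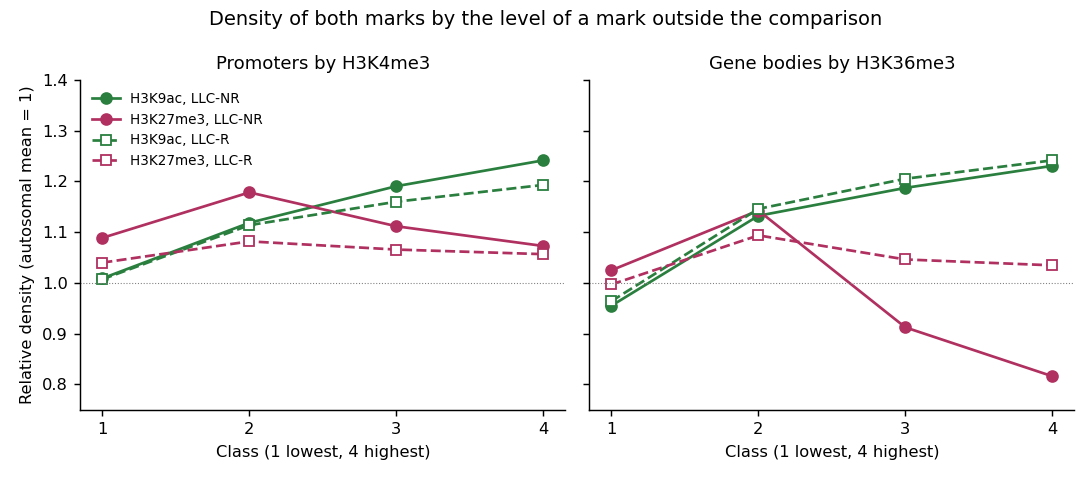
Relative density of H3K9ac (green) and H3K27me3 (red) in promoters ranked by H3K4me3 and gene bodies ranked by H3K36me3 of the same line, with filled circles for LLC-NR and open squares for LLC-R. In gene bodies the marks part from the second to the highest class, with H3K9ac at 1.23 and 1.24 and H3K27me3 at 0.816 for LLC-NR and 1.03 for LLC-R in the highest; the vertical axis starts at 0.75.

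At single promoters, 146 of 20405 (0.716%) were higher in H3K9ac and 122 (0.598%) were higher in H3K27me3 at an adjusted p under 0.05 (limma, on log2 of peaks plus 0.5, scaled to the library total). With the line as a block, a fit that compares the marks within each line, 0 promoters passed in either direction, and 1168 and 712 had an unadjusted p under 0.05. In 28.6% of promoters both H3K9ac libraries lay above both H3K27me3 libraries, and in 19.6% the reverse held. The calls also rested on single libraries. Without H3K9ac of LLC-NR 0 and 44 passed, without H3K9ac of LLC-R 0 and 32, without H3K27me3 of LLC-NR 7 and 0, and without H3K27me3 of LLC-R 618 and 77. In each of these fits the lone library of a mark was assumed to vary like the other pair.

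Among promoters higher in H3K9ac, Zfp36, which encodes an mRNA decay factor induced by growth signals, held 8 and 7 H3K9ac peaks in LLC-NR and LLC-R and 0 and 2 H3K27me3 peaks in its window (chr7:29163774-29165274). Its fitted difference was 2.82 on the log2 scale (SE 0.63, adjusted p = 0.0249 by limma and 0.389 with the line as a block). Aldoa, the glycolytic aldolase, held 7 and 8 against 0 and 4 (chr7:133943765-133945265). In both genes the H3K27me3 library without a peak was that of LLC-NR, and the numbers of the marks did not overlap. Nbr1, an autophagy receptor, held 7 and 6 against 0 and 4, and Ank3, which encodes ankyrin-G, held the same numbers. Rps9, a protein of the small ribosomal subunit, held 7 and 5 against 0 and 3. Rabgef1, an exchange factor for Rab5, held 6 and 6 against 0 and 3. These 6 promoters share an empty H3K27me3 window in LLC-NR, and the size of such a fitted difference depends on the pseudocount. Over the 16 promoters named by this rule, the adjusted p with the block was 0.389 to 0.545 (limma). Of all 146, 18 had an empty H3K27me3 library. Arrdc2, of the arrestin-domain family, held 6 and 6 against 3 and 0, so there the empty library was LLC-R. A530054K11Rik held 6 and 6 against 1 and 1, and was the only one of these 8 with the same numbers in both lines. Each of the 8 also held 2 to 8 H3K4me3 peaks in either line, where all promoters had a median of 6 in LLC-NR and 5 in LLC-R.

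Among promoters higher in H3K27me3, Cacna2d3, an auxiliary subunit of voltage-gated calcium channels, held 1 and 1 H3K9ac peaks in LLC-NR and LLC-R and 5 and 7 H3K27me3 peaks (chr14:30534550-30536050). Fzd10, a Wnt receptor, held exactly the same numbers (chr5:129105719-129107219). Both had a fitted difference of -2.12 (SE 0.61, adjusted p = 0.0456 by limma and 0.389 with the block) and nearly the same ratio in each line. Med12l, a paralog of the Mediator subunit Med12, held 0 and 4 against 7 and 7. Hs6st3, a heparan sulfate 6-O-sulfotransferase, held 0 and 4 against 6 and 8, and Nrg3, a neuregulin that signals through ErbB4, held 0 and 3 against 5 and 7. Fbn2, a fibrillin of the extracellular matrix, held 0 and 2 against 6 and 6, and Slc35d3, of a family of nucleotide-sugar transporters, held 0 and 4 against 7 and 6. In these 5 the library without a peak was H3K9ac of LLC-NR. Wt1, a transcription factor of kidney and gonad development, held 4 and 0 against 6 and 6, so its empty library was H3K9ac of LLC-R. Of all 122, 8 had an empty H3K9ac library. The 8 promoters held 3 to 7 H3K4me3 peaks in either line, where all promoters had a median of 6 in LLC-NR and 5 in LLC-R. Peaks from bulk tissue cannot show whether H3K27me3 and H3K4me3 lie in the same cells.

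**Figure D3:**
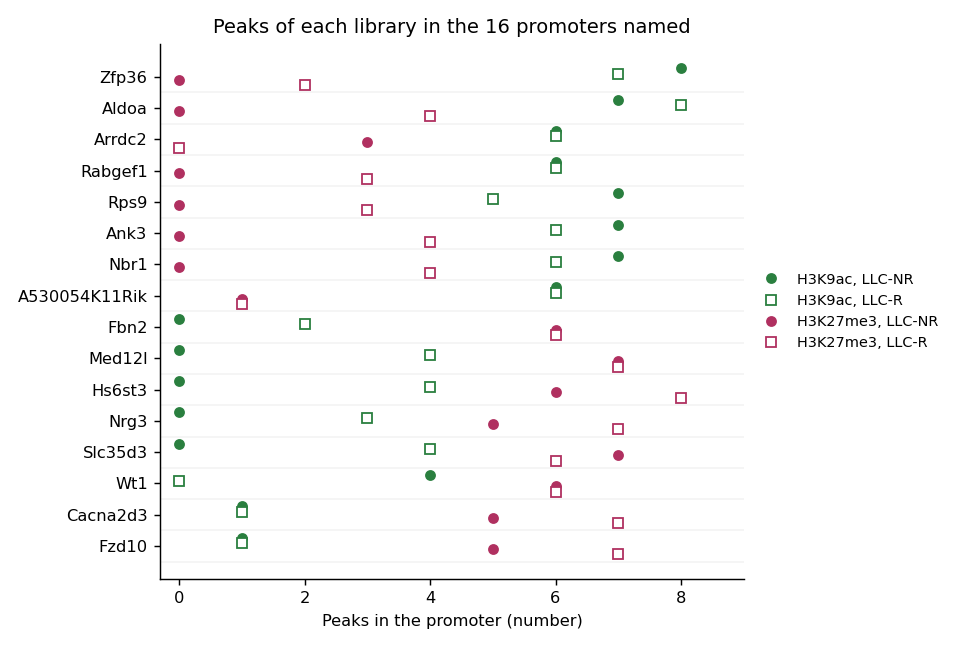
Number of peaks of each library in the 16 promoters named by the rule, with H3K9ac in green, H3K27me3 in red, filled circles for LLC-NR and open squares for LLC-R. The green and red symbols of a promoter do not overlap, and an empty library sits at 0 in 13 of them on the side of the lower mark.

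The called promoters also differed in what the rule did not use. Those higher in H3K27me3 had a median G+C content of 62.8% and 74.3 CpG per kb, against 52.6% and 42.0 for those higher in H3K9ac and 52.3% and 34.6 for all promoters. With G+C content taken out of every library before the fit, 0 promoters passed in either direction, with 1657 and 1172 at an unadjusted p under 0.05. The bodies of the same genes, which begin where the promoter window ends and come from the same libraries, leaned the same way. The median log2 ratio of bodies was 0.73 for LLC-NR and 0.29 for LLC-R for the 137 genes with a promoter higher in H3K9ac. It was -0.22 and -0.063 for the 116 with a promoter higher in H3K27me3, and 0.25 and 0.15 over 17130 genes. Rps9 carried its order on into the body with 10 and 10 H3K9ac peaks against 1 and 6, and Nbr1 with 115 and 100 against 32 and 80. Nrg3 did not: its body of 1104 kb held 3178 and 3025 against 2352 and 3775, with a log2 ratio of 0.19 for LLC-NR and -0.12 for LLC-R.

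Gene bodies were taken from 0.5 kb downstream of the TSS to the annotated end of the gene. In them the ratio of the marks followed H3K36me3, while the correlation of the marks differed in sign between the lines. The Spearman correlation across the 17323 bodies tested was -0.019 for LLC-NR and 0.24 for LLC-R. With G+C content taken out of both ranks it was -0.074 and 0.16. As in promoters, these values are descriptions. Of 17843 bodies at least 2 kb long, 17323 held a mean of at least 5 peaks. In LLC-NR, the log2 ratio of H3K9ac to H3K27me3 was -0.10, -0.013, 0.38 and 0.59 from the lowest to the highest class by H3K36me3. In LLC-R it was -0.048, 0.067, 0.20 and 0.26. The step from the lowest to the highest class was 0.69 for LLC-NR and 0.31 for LLC-R, and H3K9ac was ahead in 97.0% and 95.0% of the bodies of the highest class, against 29.4% and 35.5% of the lowest.

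The lines differed in which mark made that step. H3K9ac behaved alike in both, with relative densities of 0.955 and 0.964 in the lowest and 1.23 and 1.24 in the highest class. H3K27me3 in LLC-NR stood at 1.02, 1.14, 0.912 and 0.816 across the classes. In LLC-R it stood at 0.997, 1.09, 1.05 and 1.03, so it was not below the genome mean where H3K36me3 was high. Across all 17323 bodies, H3K27me3 correlated with H3K36me3 at -0.39 for LLC-NR and -0.028 for LLC-R, and H3K9ac at 0.55 and 0.63. The H3K27me3 library of LLC-R was also the deepest of the 4, with peaks on 53.0% of bases against 42.3% in LLC-NR. The part of depth in this difference between the lines was not tested. Pairing libraries across lines by similar numbers of peaks, a choice made after the data were seen, left the steps at 0.66 with H3K27me3 of LLC-NR and 0.31 with H3K27me3 of LLC-R, but the H3K36me3 library that ranks the bodies changed together with H3K27me3, so the step cannot be assigned to either.

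The separation ran along the whole body. In bodies of at least 20 kb in the highest class by H3K36me3, the log2 ratio was 0.61 in the first of 10 equal parts of the body and 0.55 in the last for LLC-NR, and 0.31 and 0.24 for LLC-R. H3K27me3 in LLC-NR lay between 0.803 and 0.837 in all parts. H3K9ac lay between 1.22 and 1.27 there, and the highest class of promoters by H3K4me3 had 1.24 in LLC-NR. These are numbers of peaks without heights, and the promoter window takes in the trough at the TSS. They do not compare the strength of the mark. In the lowest class the ratio ran from -0.11 to -0.093 in LLC-NR and from -0.057 to -0.035 in LLC-R. Within each of 5 classes of bodies by G+C content, the step from the lowest to the highest class was 0.63 to 0.79 in LLC-NR and 0.29 to 0.32 in LLC-R.

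The number of bodies called differed between the fits with and without the line as a block. So did the prior degrees of freedom, which set how far limma draws each variance to a common trend. They were 7.33 without the block and infinite with it. In promoters they were infinite without the block and 1.18 with it. Their part in the counts was not tested. Without a block, 0 of 17323 bodies passed in either direction (0% and 0%), although 6496 were higher in H3K9ac and 180 were higher in H3K27me3 at an unadjusted p under 0.05 (limma). With the line as a block, 2926 (16.9%) were higher in H3K9ac and 58 (0.335%) were higher in H3K27me3 at an adjusted p under 0.05. Without H3K27me3 of LLC-NR 6743 and 441 passed, without H3K27me3 of LLC-R 8822 and 3724, without H3K9ac of LLC-NR 0 and 1, and without H3K9ac of LLC-R 2 and 1. Both H3K9ac libraries lay above both H3K27me3 libraries in 54.4% of bodies, and below them in 16.2%. With the median of each library set equal, the median difference over all bodies moved by -0.22 on the log2 scale, and bodies with a positive difference went from 63.3% to 48.4%. At an unadjusted p under 0.05, 1694 bodies were then higher in H3K9ac and 3213 in H3K27me3, so the balance turned. Directions below stand beside the median of all bodies, 0.20. The log2 ratio of bodies in LLC-NR correlated with that in LLC-R at 0.73 across 17323 bodies, from 4 separate libraries. The change of H3K9ac from LLC-NR to LLC-R did not run against that of H3K27me3, with a correlation of -0.011.

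Because no body passed without the block, the bodies named next were picked by the size of their difference after values were seen, among those with a mean of at least 20 peaks. Fkbp8, a mitochondrial immunophilin, held 31 and 29 H3K9ac peaks in LLC-NR and LLC-R and 7 and 20 H3K27me3 peaks, a difference of 1.28 (SE 0.31, adjusted p = 0.0847 by limma and 1.96e-05 with the line as a block). U2af2, a splicing factor that binds the polypyrimidine tract, held 71 and 67 against 21 and 47. Ndufs7, a subunit of respiratory complex I, held 32 and 31 against 11 and 20. In each of the 3 bodies the H3K27me3 libraries lay below both H3K9ac libraries, and LLC-NR was the lower of them. At the other end, Cdkn2a, which encodes the cell cycle inhibitors p16Ink4a and p19Arf and is a known Polycomb target, held 36 and 37 against 68 and 74 (chr4:88920377-88940057). Its difference was -0.97 (SE 0.15, adjusted p = 0.0847 by limma and 0.00033 with the block). Evx2, a homeobox gene beside the HoxD cluster, held 15 and 17 against 27 and 28. Nkx6-1, a homeobox gene of pancreas and spinal cord, held 14 and 19 against 25 and 31. Sp8, a zinc finger factor of limb and brain development, held 17 and 14 against 23 and 26. In these the order held in both lines. Among shorter bodies with the largest differences, also picked after values were seen, were the forkhead genes Foxl2, with 4 and 4 against 9 and 10, and Foxe1, with 6 and 4 against 11 and 11, and the POU factor Pou3f1, with 5 and 4 against 11 and 10.

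Gene lists sorted along the same axis in promoters and in bodies. Counts below give members with a positive or negative fitted difference, beside 51.8% of all promoters and 63.3% of all bodies with a positive one, and the members that passed the test. Calls of promoters are from the fit without the block, and with the block 0 promoters passed in any list. Calls of bodies are from the fit with the block, and without it 0 bodies passed in any list. Developmental transcription factors lay farthest to the side of H3K27me3. Of 61 promoters, 58 had a negative difference and 4 were called higher in H3K27me3 (background 0.598%): Foxd3, Lhx5, Six2 and Wt1. Foxd3, a neural crest factor, held 1 and 3 H3K9ac peaks against 6 and 7 H3K27me3 peaks. Six2, a kidney progenitor factor, held 2 and 3 against 7 and 8, and Lhx5, a LIM homeobox factor, held 2 and 4 against 8 and 7. Barhl2, a neural homeobox gene with 1 and 2 against 7 and 4, did not pass (adjusted p = 0.0957 by limma). The median log2 ratio of the list in promoters was -0.48 for LLC-NR and -0.33 for LLC-R, where all promoters had -0.0018 and 0.20. In bodies, 51 of 55 had a negative difference, and with the block 5 were called higher in H3K27me3 (background 0.335%): Emx2, Evx2, Nkx2-1, Nkx6-1 and Tlx3. At these genes H3K4me3 was not low, at 1.54 and 1.47 times the genome mean over the promoters against 1.53 and 1.44 over all promoters.

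The Hox genes, which set position along the body axis and are a textbook Polycomb target, showed the order less evenly. Of 40 promoters (39 symbols, 1 of them annotated at a pair of genes), 35 had a negative difference and 0 passed. In 16 of the 40, against 19.6% of all promoters, both H3K27me3 libraries lay above both H3K9ac libraries. The median log2 ratio was -0.33 for LLC-NR and -0.037 for LLC-R. Hoxd13 held 3 and 2 against 6 and 6 (adjusted p = 0.09 by limma), Hoxd1 held 4 and 3 against 7 and 6 (adjusted p = 0.104), and Hoxb9 held 4 and 5 against 8 and 7 (adjusted p = 0.0778). In bodies, 32 of 37 had a negative difference, with a median of -0.28 for LLC-NR and -0.11 for LLC-R, and 0 passed with or without the block. Pooled over promoters, H3K9ac was at 1.13 and 1.12 times the genome mean, close to 1.14 and 1.12 over all promoters, and H3K27me3 was at 1.48 and 1.19, against 1.11 and 1.06. In this list H3K27me3 was above its level over all promoters while H3K9ac was close to it. In developmental transcription factors H3K9ac was also low, at 0.949 and 0.939, beside H3K27me3 at 1.41 and 1.26.

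Olfactory receptors and keratins are silent in most tissues but are not textbook Polycomb targets. Of 1054 olfactory receptor promoters, out of 1081 found, 651 had a negative difference. Of the 1054, 1 was called higher in H3K27me3 (background 0.598%), Olfr288, with 3 and 4 against 8 and 7. The 3 largest differences, in Olfr201, Olfr1281 and Olfr1033, did not pass (adjusted p = 0.415, 0.44 and 0.115 by limma), and 2 of them were negative. Both marks sat near the genome mean in this list, H3K9ac at 0.978 and 0.949 and H3K27me3 at 1.01 and 1.02. Its promoters had a median G+C content of 37.4% against 52.3% for all. Keratins and keratin-associated genes had a negative difference in 67 of 92 promoters and in 41 of 47 bodies. Krtap4-2, with 4 and 3 against 6 and 7, and Krtap6-1, with 2 and 3 against 4 and 5, did not pass, nor did Krtap7-1, whose libraries overlapped. Krt8, a keratin of simple epithelia, was the single body of the list called higher in H3K9ac with the block (background 16.9%), with 27 and 26 against 13 and 23. With the block, 1 of 118 bodies of the olfactory receptors, Olfr695, was called higher in H3K9ac (background 16.9%).

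**Figure D4:**
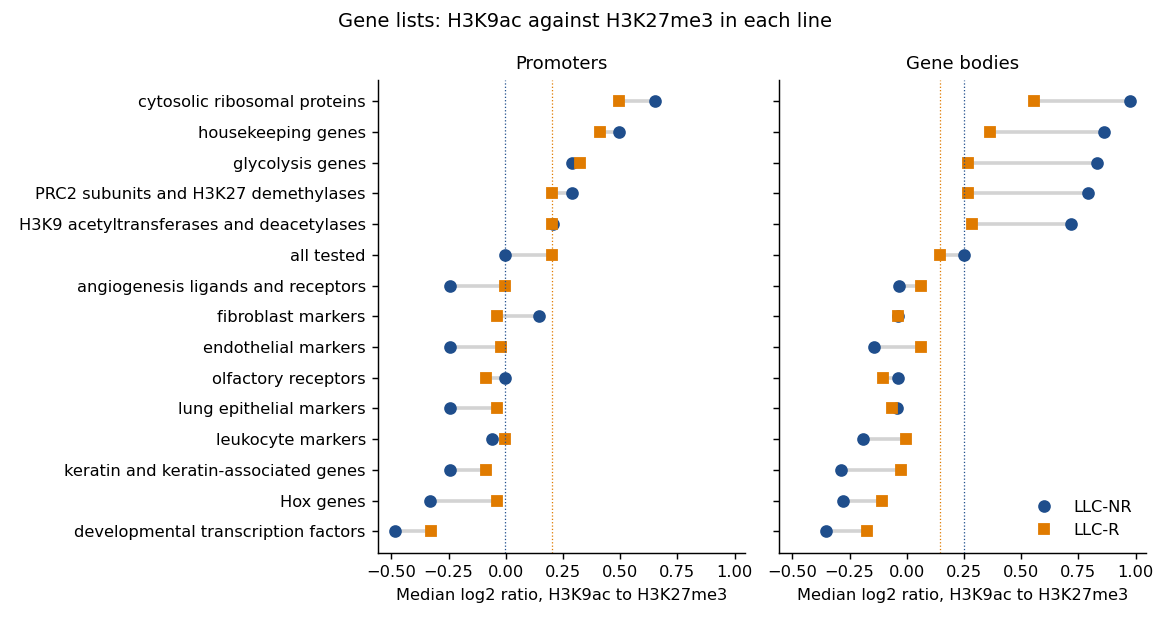
Median log2 ratio of H3K9ac to H3K27me3 over the members of each gene list that were tested, in promoters and gene bodies, for LLC-NR (blue circles) and LLC-R (orange squares), with the median of all tested regions as dotted lines. Ribosomal protein genes lie at the upper end and developmental transcription factors at the lower end in both kinds of region, and the lines lie farthest apart in the bodies of the lists on the H3K9ac side.

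Genes that most cells transcribe lay on the side of H3K9ac. Of 79 promoters of cytosolic ribosomal proteins, 72 had a positive difference and 3 were called higher in H3K9ac (background 0.716%): Rps9, Rpl12 with 7 and 7 against 1 and 6, and Rpl4 with 7 and 7 against 3 and 3. Rps24 held 6 and 5 against 1 and 2 (adjusted p = 0.0898 by limma) and Rps26 held 6 and 5 against 3 and 1 (adjusted p = 0.104). The median log2 ratio was 0.65 for LLC-NR and 0.49 for LLC-R in promoters, and 0.97 and 0.56 in bodies. In bodies, 59 of 60 had a positive difference and 36 were called higher in H3K9ac with the block (background 16.9%). These genes have many processed pseudogenes, and reads that map to both were not used by the authors, which can lower the number of peaks of either mark. Housekeeping genes had a positive difference in 23 of 25 promoters and 20 of 21 bodies. Chmp2a, of the ESCRT-III membrane complex, held 8 and 7 against 2 and 4, and B2m, the light chain of MHC class I, held 8 and 7 against 3 and 3. Both were called higher in H3K9ac (background 0.716%), while Ubb, a ubiquitin gene with 6 and 5 against 1 and 3, was not (adjusted p = 0.104 by limma). With the block, 14 of the 21 bodies were called (background 16.9%). Of the glycolysis genes, 11 of 18 promoters and 17 of 18 bodies had a positive difference. Aldoa was called among promoters (background 0.716%), and 9 bodies were called higher in H3K9ac with the block (background 16.9%). Tpi1, the triosephosphate isomerase, held 6 and 4 against 1 and 1, and Eno1, the enolase, 6 and 6 against 2 and 3, neither past the threshold (adjusted p = 0.109 and 0.102 by limma).

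Genes for the enzymes that place and remove the marks had more H3K9ac in their bodies. Of the PRC2 subunits and H3K27 demethylases, 11 of 13 list members were found on autosomes, and all 11 bodies had a positive difference, with a median log2 ratio of 0.79 for LLC-NR and 0.27 for LLC-R. With the block, 6 were called higher in H3K9ac (background 16.9%), and 0 without it: Aebp2, Eed, Ezh1, Kdm6b, Mtf2 and Rbbp4. The body of Eed, the subunit that binds H3K27me3, held 107 and 96 H3K9ac peaks against 52 and 88 H3K27me3 peaks. Among promoters, 8 of 11 had a positive difference and 0 passed, with Kdm6b, an H3K27 demethylase, at 6 and 6 against 2 and 4, Eed at 5 and 5 against 2 and 4, and Phf1 at 7 and 5 against 3 and 5. H3K9 acetyltransferases and deacetylases had a positive difference in 15 of 15 bodies, of which 8 were called with the block (background 16.9%), and in 11 of 15 promoters, of which 0 passed. Kat2b, which encodes PCAF, held 8 and 6 against 4 and 4 in its promoter, and Tada3 held 7 and 6 against 4 and 5. Tada2b, like Tada3 an adaptor of acetyltransferase complexes, went the other way in its promoter with 5 and 4 against 6 and 7, while its body held 42 and 38 against 23 and 38.

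Angiogenesis ligands and receptors, the genes closest to the VEGF pathway that VEGF-Trap blocks, lay between the groups. Of 25 promoters (24 symbols), 16 had a negative difference and 0 passed. Dll4, a Notch ligand of vessel tips, held 5 and 4 against 7 and 8 (adjusted p = 0.0778 by limma), Flt1, a VEGF receptor, held 4 and 4 against 7 and 6 (adjusted p = 0.176), and Tie1, an endothelial receptor, held 4 and 6 against 7 and 7 (adjusted p = 0.235). In bodies, 13 were positive and 12 negative, with a median difference of 0.021 that went to -0.20 with library medians set equal. With the block 1 of 25 bodies was called higher in H3K9ac, where 16.9% of all bodies were: Angpt2, a ligand of the Tie2 receptor, with 224 and 198 against 106 and 190. The promoters of Dll4 and Flt1 had more H3K27me3 than H3K9ac peaks in either line. The body of Dll4 held 45 and 38 against 40 and 43, and that of Flt1 672 and 603 against 624 and 698, with the marks overlapping in both.

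Markers of cell types that an isograft could hold had median log2 ratios in bodies of -0.19, -0.14, -0.036 and -0.044 in LLC-NR for leukocytes, endothelium, fibroblasts and lung epithelium, against 0.25 over all bodies. In LLC-R the medians were -0.0049, 0.062, -0.039 and -0.065, against 0.14. The part of these cells in the comparison was not tested, and some genes stand in more than 1 list. Of the leukocyte markers, 11 of 17 promoters and 11 of 13 bodies had a negative difference, of the endothelial markers 8 of 10 and 5 of 9, of the fibroblast markers 6 of 11 and 7 of 11, and of the lung epithelial markers 9 of 13 and 9 of 13. Of these promoters 0 were called in either direction. Cd68, of macrophages, held 7 and 6 against 2 and 4 (adjusted p = 0.0778 by limma), while Itgam, an integrin of myeloid cells, held 6 and 4 against 6 and 7. Among endothelial genes, Cldn5 held 5 and 5 against 5 and 7 and Tek held 6 and 5 against 6 and 7. The body of Eng, 1 of 9 in that list, was called higher in H3K9ac with the block (background 16.9%), with 158 and 144 against 73 and 134. Col3a1, a collagen of fibroblasts, held 9 and 5 H3K9ac peaks against 1 and 6 of H3K27me3, so its marks overlapped between the lines (adjusted p = 0.053 by limma). Postn held 5 and 5 against 7 and 6, and Fap 7 and 6 against 4 and 6. The labels name lung as the tissue, although the tumors grew under the skin. Nkx2-1, the lineage factor of lung epithelium, held 5 and 3 against 7 and 7 in its promoter (adjusted p = 0.0778 by limma). Its body, 1 of 13 in that list, was called higher in H3K27me3 with the block (background 0.335%), with 12 and 12 against 19 and 18. Aqp5 held 3 and 5 against 6 and 6, and Sftpa1 5 and 3 against 1 and 5. Nkx2-1 thus held more H3K27me3 than H3K9ac peaks in both lines, but it also stands in the list of developmental transcription factors. The other way, 4 of 13 promoters and 4 of 13 bodies of the lung epithelial markers had a positive difference.

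At the scale of 100-kb tiles the numbers of peaks of the marks rose together. Of 24712 tiles, 23475 had at most 10% unknown bases and a mean of at least 50 peaks. Across them the Spearman correlation of H3K9ac with H3K27me3 was 0.55 for LLC-NR and 0.79 for LLC-R, and 0.38 and 0.67 with G+C content taken out of both ranks. Across lines it was 0.74 for H3K9ac of LLC-NR with H3K27me3 of LLC-R, and 0.57 the other way round. H3K36me3 also correlated with H3K9ac, at 0.84 and 0.91, and with H3K27me3, at 0.35 and 0.68, for LLC-NR and LLC-R. Tiles share mappability, depth and base composition and are not replicates, so these values do not test opposition of the marks. Tiles with genes held more of either mark than tiles without: tiles at least 50% covered by protein-coding genes had relative densities of 1.11 for H3K9ac and 1.03 for H3K27me3 for LLC-NR, and 1.102 and 1.05 for LLC-R. Tiles without such a gene had 0.915 and 0.964 for LLC-NR and 0.923 and 0.974 for LLC-R. Tiles with a lower cover had 1.01 and 1.07 in LLC-NR, with 1.01 and 1.02 in LLC-R, so H3K27me3 in LLC-NR was highest at intermediate cover. The log2 ratio was 0.10 and 0.068 in the gene-covered tiles and -0.075 and -0.077 in the empty ones, with the same sign in both lines.

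Beside this shared order, 1584 tiles (6.75%) were higher in H3K9ac and 5 (0.0213%) were higher in H3K27me3 at an adjusted p under 0.05 (limma). With the line as a block, 2121 and 20 passed. With G+C content taken out, 0 and 0 passed, with 3655 and 1204 at an unadjusted p under 0.05, and tiles with a positive difference went from 38.0% to 49.98%. Without H3K9ac of either line 0 and 0 passed, without H3K27me3 of LLC-NR 4283 and 1300, and without H3K27me3 of LLC-R 5965 and 8239. The 1584 tiles had a median gene cover of 88.2% against 29.7% of all tiles, and 74.9% held a TSS against 43.3%. H3K36me3 was at 1.36 and 1.18 times the genome mean in them, H3K9ac at 1.21 and 1.20, and H3K27me3 at 0.805 and 1.005, for LLC-NR and LLC-R. The tiles were chosen by H3K9ac and H3K27me3 in these libraries, so the levels of both marks in them follow from the choice.

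Among tiles higher in H3K9ac, the one over Chd2, a chromatin remodeler (chr7:80600001-80700000), held 414 and 370 H3K9ac peaks against 145 and 339 H3K27me3 peaks, a difference of 0.80 (SE 0.20, adjusted p = 0.0374 by limma). The tile of Vmp1 and Ptrh2, an autophagy protein and a mitochondrial hydrolase, held 430 and 383 against 165 and 342. The tile of Sec24c, Fut11, Chchd1, 2310021P13Rik, Ndst2 and Camk2g held 430 and 375 against 166 and 334, the tile inside Gm15800 held 416 and 385 against 149 and 352, and the tile of Frmd8, Slc25a45, Tigd3 and Dpf2 held 436 and 396 against 189 and 317. In all 5 the gap was widest in LLC-NR, through its H3K27me3 library. Of the 5 tiles higher in H3K27me3, 3 held a single protein-coding gene each. The tile of Nkx6-1 held 300 and 307 against 343 and 404 (adjusted p = 0.0444 by limma). The tile of Otx2, a homeobox factor of the forebrain and eye, held 336 and 316 against 367 and 431, and the next one, which holds no protein-coding gene, 329 and 315 against 366 and 417. The tile of Skor2, a corepressor of the cerebellum, held 299 and 305 against 339 and 403. The fifth, with Cd96 and Gm4737, held 337 and 312 against 361 and 418. In these 5 the log2 ratio was -0.34 to -0.44 in LLC-NR and -0.19 to -0.24 in LLC-R, and protein-coding genes covered 0% to 22.4% of them.

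**Figure D5:**
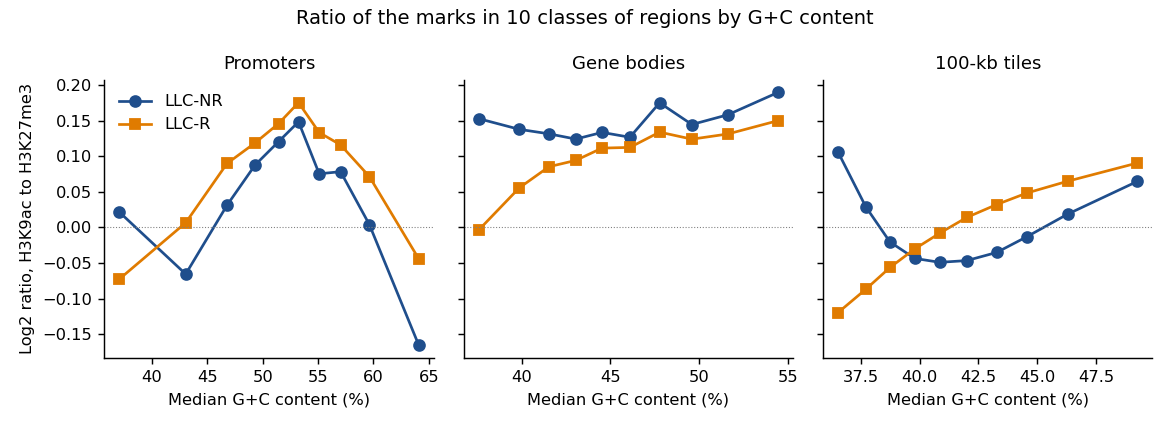
Log2 ratio of the relative densities of H3K9ac and H3K27me3 in 10 equal classes of promoters, gene bodies and 100-kb tiles by G+C content, for LLC-NR (blue circles) and LLC-R (orange squares), plotted at the median G+C content of each class. In promoters both lines peak near 53.2% and fall to the GC-rich end. LLC-R also falls to the AT-rich end, while LLC-NR turns up from -0.065 in the second class to 0.022 in the first. In the AT-rich tiles the lines go opposite ways.

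G+C content moved with the ratio in ways that differed between kinds of region. In promoters the ratio was highest in the sixth of 10 classes, with a median G+C content of 53.2%, at 0.15 for LLC-NR and 0.18 for LLC-R. It was lowest in LLC-NR in the most GC-rich class, with a median of 64.1%, at -0.17, where LLC-R had -0.044. In bodies the ratio was 0.12 or more in every class in LLC-NR, and went from -0.0036 to 0.15 in LLC-R. In tiles, the class poorest in G+C, with a median of 36.5%, had a ratio of 0.11 for LLC-NR and -0.12 for LLC-R, while the richest had 0.065 and 0.090. Across tiles the log2 ratio correlated with G+C content at -0.11 for LLC-NR and 0.53 for LLC-R. The order of depth crosses between the lines in the same way, and depth and line cannot be told apart in this comparison. The log2 ratio of tiles in LLC-NR correlated with that in LLC-R at 0.36, and at 0.53 with G+C content taken out of both, so a part of it lay in the same tiles in both lines. For promoters the correlation was 0.38, and 0.37 with G+C content taken out.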

How the data were processed

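The authors digested nuclei of isograft tissue with micrococcal nuclease and immunoprecipitated the chromatin with 1 antibody per library. Per the submitters' processing notes, reads were aligned to mm9 with Bowtie 0.12.7; by the study's methods, only reads with a unique position were used, and GeneTrack found the peaks of every library separately. The deposited files hold peak positions only, without heights, and no input library was used here. A peak was counted by its midpoint in promoters, gene bodies (GENCODE vM1) and tiles of chromosomes 1 to 19, on log2 of peaks plus 0.5, scaled to the autosomal peaks of the library. The 2 libraries of each mark were compared with limma 3.58.1 in R 4.3.3 (trend, Benjamini-Hochberg, adjusted p under 0.05) for regions with a mean of at least 2, 5 and 50 peaks. The fit was also run on simulated counts, drawn without an effect of the line and without a ceiling on peaks. That run does not test the calls above. Medians, relative densities and Spearman correlations were computed in Python 3.11.15.

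Both marks of a line come from the same cell line, so the line pairs the libraries, and the fit with the line as a block is given beside the counts it changes. The deviations of paired libraries from their mark's mean correlated at -0.0019 in promoters, -0.0032 in bodies and 0.098 in tiles (Pearson). The named promoters are the 8 called in each direction with the largest difference and no overlap, the named tiles are 5 in each direction, and each of the 14 gene lists gives its 3 promoters with the largest difference plus those called, apart from 1 promoter that is not reported here. As no body was called, bodies were named by size. The members and lists were chosen with earlier results of these data known. Alternatives were the block, G+C content, the pseudocount, the filter, the scaling, a fold threshold, the window and each library left out.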

Additional observations from a re-analysis of the deposited data

Results flagged for a closer look

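In a few classes of regions the log2 ratio of H3K9ac to H3K27me3 had opposite signs in LLC-NR and LLC-R. With 1 library per line and mark, the difference between the lines was not tested. Regions were ranked by G+C content into 10 classes from AT-rich to GC-rich. In promoters this held for the first class, at 0.022 for LLC-NR and -0.072 for LLC-R, and for the second, at -0.065 and 0.0066. In gene bodies it held for the first class, at 0.15 and -0.0036. In 100-kb tiles it held for the first class, at 0.11 and -0.12, and the second, at 0.029 and -0.087. It held with the other sign for the sixth, at -0.046 and 0.014, the seventh, at -0.035 and 0.032, and the eighth, at -0.013 and 0.048. Of 4 classes by another mark, the second class of promoters by H3K4me3 had -0.075 and 0.042, the second class of bodies by H3K36me3 had -0.013 and 0.067, and the third class of tiles by H3K36me3 had -0.074 and 0.0044.

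Chromosome Y was outside the comparison. The mouse libraries held 328 H3K9ac and 85 H3K27me3 peaks there for LLC-NR, and 1993 and 2786 for LLC-R, all above the limit of 3 that a count of 0 allows, which covers counting error only. The hosts were female.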

How the results depend on the processing

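The counts of called regions depended on the settings, and the cause was not tested. Counts are given as higher in H3K9ac and higher in H3K27me3. Promoters went from 146 and 122 to 0 and 0 with the line as a replicate block, with G+C content taken out, with library medians set equal and against a fold of 1.1, to 227 with a pseudocount of 2 peaks, and to 2826 and 591 within 2 kb on each side of the TSS. Leaving out each library gave 0 to 618 and 0 to 77. Bodies went from 0 and 0 to 2926 and 58 with the block, and to 734 and 0 for bodies of 20 kb or more with the block, an alternative chosen after seeing the data. Leaving out each library gave 0 to 8822 and 1 to 3724. Tiles went from 1584 and 5 to 2121 and 20 with the block, 0 and 0 with G+C content taken out and against a fold of 1.1, 0 higher in H3K27me3 with no filter, 14 with medians set equal, and 4340 and 45 in 50-kb tiles. Leaving out each library gave 0 to 5965 and 0 to 8239.

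The correlation of the marks in LLC-NR went to 0.12 in promoters and from -0.019 to 0.034 in bodies with no filter. In bodies it was -0.074 with G+C content taken out. With G+C content taken out, the correlation of the changes between lines in bodies went from -0.011 to 0.0049, and that of the log2 ratio between lines in tiles from 0.36 to 0.53. Without H3K27me3 of LLC-NR the differences of Krtap7-1 promoters and Sftpa1 promoters turned to -0.18, and without H3K27me3 of LLC-R they were 1.81 and 1.37. No other region named by the rule changed direction. The step of bodies along H3K36me3 lay between 0.63 and 0.79 for LLC-NR and between 0.29 and 0.32 for LLC-R under the alternatives run, which were chosen after seeing the data. Peaks without heights that cover 42.3% to 53.0% of bases limit the range of every value.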
